A study of Mus musculus with 10 samples.

Results

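A long non-coding RNA (lncRNA) is a long transcript that carries no protein-coding frame. The testis is known for transcribing many more lncRNAs than most tissues, and the mature sperm cell is largely silent in transcription, so that its RNA is mostly carried over from earlier stages of sperm formation. Cadmium is a toxic metal known to damage the testis, and cadmium chloride (CdCl2) is the salt used here to deliver it. The transcripts described here are the known lncRNAs that were abundant in every sample of mouse sperm and testes, "known" meaning that they carry an identifier of the NONCODE database.

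A member was a NONCODE transcript with an expected count of at least 100 in each of the 10 samples, after 9 genes had been left out by name (NONMMUG018329.2, NONMMUG020676.2, NONMMUG074735.1, NONMMUG020672.2, NONMMUG049565.1, NONMMUG031296.2, NONMMUG020754.2, NONMMUG039964.2 and NONMMUG039787.2). An expected count is the number of reads that the authors' quantification assigned to a transcript, which need not be whole where reads fit several transcripts. The rule gave 240 transcripts of 233 genes. They were 0.465% of the 51610 known lncRNA transcripts in the tables and 9.3% of the 2582 that were listed in every sample, and the tables held 84289 transcripts of all kinds. Before the 9 genes were left out, 251 known lncRNAs were over the floor, and the 11 that were removed belonged to those genes. The same floor was passed by 14 of 18966 known mRNAs, by 23 of 11596 predicted lncRNAs and by 3 of 2117 predicted mRNAs.

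Per the labels the mice were C57BL/6, aged 3-5 months, and each received 1 injection into the peritoneum, either CdCl2 at 3 mg per kg or saline in the controls, with 50 mice in each arm. Sperm and testes were taken 35 days later. There were 4 control sperm, 2 cadmium sperm, 2 control testes and 2 cadmium testes samples, each sequenced after depletion of ribosomal RNA. Per the study's methods a sperm sample was a pool of several mice, washed to lyse somatic cells, and testes were whole tissue that holds many cell types. The labels and the study's methods differ in the age and number of the mice, and the labels' values are given here. The study left control sperm sample 1 out of its results. The tests below leave it out too, and the values of all 4 control sperm samples are shown.

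The expected counts of a library summed to between 366455 and 1058017 in control sperm, to 1155491 and 1254477 in cadmium sperm, and to between 2606086 and 2866856 in testes. The floor of 100 counts therefore asked for 272.9 counts per 1000000 counts of the library (CPM) in the shallowest sperm library and for 34.9 to 38.4 CPM in testes. A member high in sperm could pass with a low level in testes, but not the reverse, and the lowest count of a member was in control sperm sample 3 for 115 members, in control sperm sample 1 for 69 and in control sperm sample 4 for 25. Just inside the floor lay NONMMUT082342.1 and NONMMUT024922.2 with a lowest count of 100 and NONMMUT043905.2 with 101.31, and just outside it NONMMUT015918.2 with 99, NONMMUT003790.2 with 98 and NONMMUT025620.2 with 97.69. The members were chosen by their counts in all 10 samples, so their levels are given as a description.

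Prm2, a protamine that packs DNA in the sperm head, was at 106 to 256 CPM in sperm and at 84.4 to 162 CPM in testes, whereas the other protamine, Prm1, was at 0 to 14.1 CPM in sperm and at 41.5 to 47.2 CPM in testes. The 10 markers of sperm and late spermatids summed to 143.7 to 352.0 CPM in sperm and to 243.1 to 301.9 CPM in testes, so these marker sums did not separate the tissues. Meiotic markers summed to at most 3.46 CPM in sperm and spermatogonial markers to at most 16.5 CPM, against 4.22 to 9.98 and 86.2 to 121.6 CPM in testes. Most of the spermatogonial sum was Gfra1, at 1.73 to 16.5 CPM in sperm and 84.4 to 118.5 CPM in testes. Kit, Zbtb16, Stra8 and Dazl each reached at most 2.69 CPM in any sample. The 6 Sertoli cell markers summed to 0 to 15.1 CPM in sperm and 4.43 to 7.67 CPM in testes, and the 5 Leydig cell markers to 0 to 109.2 and 42.8 to 64.1 CPM, most of it Star, the cholesterol carrier of steroid synthesis, which reached 109 CPM in control sperm sample 3. The 6 markers of epididymis epithelium reached at most 9.84 CPM in sperm and 15.1 CPM in testes, the 4 of epithelial cells 24.6 and 16.9 CPM, and the 5 of leukocytes 6.92 and 5.17 CPM. Of the 4 erythroid markers none was listed in any sample, and of the 3 endothelial markers Kdr alone was listed, at 0.865 CPM in cadmium sperm sample 1. The part of other cell types in the values below was not tested. In these bulk samples, fewer cells of a type and less RNA per cell cannot be told apart.

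The identifiers are given as the tables write them. The tables pair them with no gene symbols, and no position, sequence or known role of a member was used here.

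Known lncRNAs took 73.4 to 78.6% of the expected counts of a sample, and known mRNAs, to which the markers above belong, took 9.14 to 13.6%. The members held between 22.8 and 32.5% of the expected counts of every sample. Their share was 26.5, 23.5, 28.2 and 25.9% in the 4 control sperm samples (26.0% ± 1.94, SD, n = 4), and 27.1 and 32.5% in the cadmium sperm samples (29.8% ± 3.82, SD, n = 2). It was 22.8 and 26.7% in control testes (24.8% ± 2.76, SD, n = 2) and 23.9 and 26.7% in cadmium testes (25.3% ± 1.98, SD, n = 2). With all counts as the denominator the ranges of sperm and testes overlapped, and cadmium sperm sample 2 was the highest of the 10. The 9 genes left out took 18.9 to 21.0% of control sperm counts, 11.2 to 12.4% of cadmium sperm counts and 3.56 to 5.05% of testes counts. Without those genes in the denominator the overlap was lost, the members holding 29.7 to 37.1% in the 6 sperm samples and 23.7 to 28.1% in the 4 testes samples. Leaving out genes that took more of the sperm counts raises the sperm shares more, and the floor was lower in testes. The separation is therefore partly set by the rule and is given as a description.

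Among the 100 most counted known lncRNAs of a sample, 71 to 78 were members in sperm and 63 to 66 in testes. Transcripts of the 9 genes left out took another 13 to 17 of these places in sperm and 6 to 7 in testes. The counts were spread over many members, with 31 to 41 members, depending on the sample, holding 50% of the member counts.

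The members were long for known lncRNAs. Their lengths ran from 214 bp (NONMMUT000377.2) to 15863 bp (NONMMUT132254.1), with a median of 2277.5 bp against 1266 bp for all known lncRNAs and 1690.5 bp for those listed in every sample. Between 200 and 3000 bp lay 69.2% of the members and 86.2% of all known lncRNAs. 24 members were over 5000 bp and 10 were under 500 bp. A longer transcript collects more reads at the same level, and the floor was set on counts, so the length of the members goes with the rule.

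The shortest member, NONMMUT000377.2, was at 450, 587, 710 and 850 CPM in control sperm, 1013 and 902 CPM in cadmium sperm, 774 and 927 CPM in control testes, and 934 and 1170 CPM in cadmium testes. The longest, NONMMUT132254.1, was at 1380, 1203, 1415 and 1409 CPM in control sperm, 1367 and 1253 CPM in cadmium sperm, 849 and 1349 CPM in control testes, and 965 and 1360 CPM in cadmium testes. For both of them the ranges of sperm and testes overlapped, which did not hold for all long members: NONMMUT006494.2 (12080 bp) was at 1757 to 4190.3 CPM in sperm and 135.5 to 264.8 CPM in testes.

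For 170 members the tables listed 1 transcript of the gene, and for the other 70 they listed 2 to 11. 105 members had whole counts in all 10 samples (to within 0.005) and 70 had whole counts in none. Of the 170 members that were the single listed transcript of their gene, 98 were whole in every sample and 40 in none. Where a count is not whole, part of it was shared out between transcripts by the authors' quantification, and the level of that member depends on how.

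Mean levels over the 10 samples ran from 193.1 to 7317 CPM with a median of 718 CPM. NONMMUT033245.2 had the highest mean, with 11529, 8625, 11599 and 8952 CPM in control sperm, 8380.0 and 12064 CPM in cadmium sperm, 2317 and 3524 CPM in control testes, and 2520.2 and 3659 CPM in cadmium testes. All 6 sperm samples were above all 4 testes samples. NONMMUT031787.2 came next, at 11208, 11014, 14943 and 8994 CPM in control sperm, 5461 and 15003 CPM in cadmium sperm, and 460.4 to 730.4 CPM in testes. It was again higher in every sperm sample, and its 2 cadmium sperm samples lay at the bottom and the top of the sperm range.

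**Figure D1:**
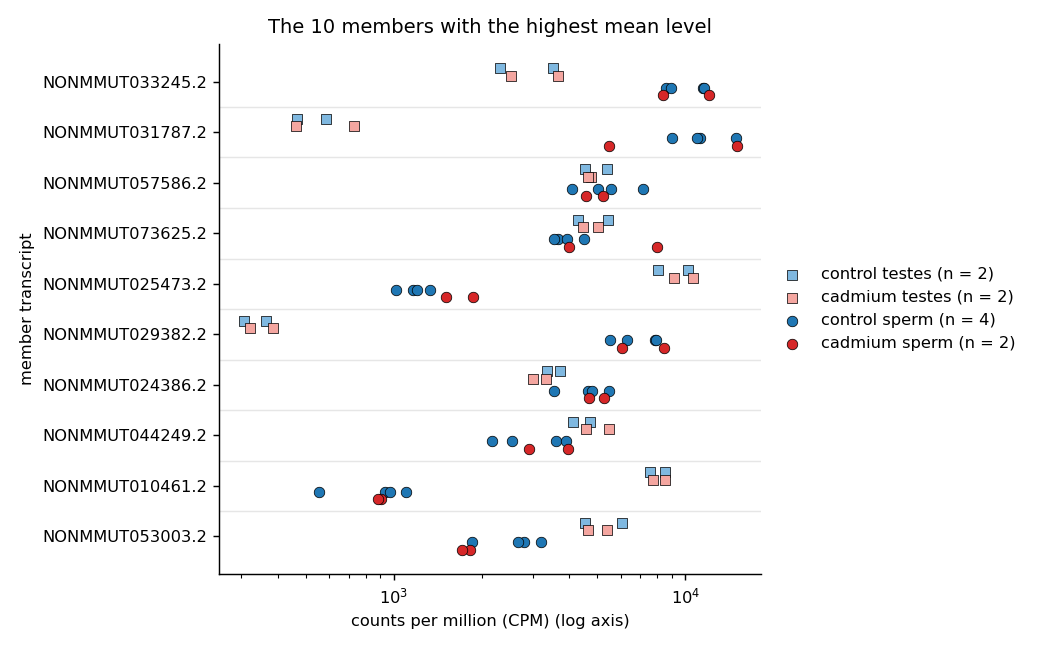
Level in CPM (horizontal, log axis) of the 10 members with the highest mean level, 1 point per sample, with circles for sperm and squares for testes, blue for control and red for cadmium. NONMMUT031787.2 and NONMMUT029382.2 lie far to the right in sperm, NONMMUT025473.2 and NONMMUT010461.2 in testes, and NONMMUT057586.2 overlaps, with all 10 points between 4091 and 7176.

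The other 8 of the 10 highest members were high in sperm, high in testes or alike in both. NONMMUT029382.2 was at 5538 to 8476 CPM in sperm and 306.1 to 386.1 CPM in testes. NONMMUT025473.2 was at 1019 to 1867 CPM in sperm and 8076 to 10633 CPM in testes, NONMMUT010461.2 at 554 to 1098 and 7568 to 8502 CPM, and NONMMUT053003.2 at 1715 to 3205 and 4530.4 to 6062 CPM. NONMMUT044249.2 was at 2169 to 3946 CPM in sperm and 4108 to 5458 CPM in testes, also without overlap. NONMMUT057586.2, NONMMUT073625.2 and NONMMUT024386.2 overlapped between the tissues, the first at 4091 to 7176 CPM in sperm and 4530.4 to 5377 CPM in testes. NONMMUT073625.2 was at 3546 to 4497 CPM in control sperm and 7978 and 3998 CPM in cadmium sperm, so that cadmium sperm sample 1 alone exceeded the testes samples, which lay at 4272 to 5446 CPM.

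Per length the order was another one. In FPKM, which divides counts by transcript length and library size, NONMMUT000380.2, a transcript of 263 bp, had the highest mean, 5623 FPKM, and 3 of the 10 highest members by CPM were also among the 10 highest by FPKM. The mean FPKM of the members ran from 19.1 to 5623 with a median of 388.

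The members differed widely in how even they were. The highest sample of a member was 3.99 times its lowest in the median, from 1.46 to 113.5 times, with 20 members under 2 times, 129 from 2 to 5, 42 from 5 to 10 and 49 at 10 or more. NONMMUT131099.1 was the most even, at 469, 398, 472 and 580 CPM in control sperm, 426 and 412 CPM in cadmium sperm, 420.3 and 576 CPM in control testes, and 422 and 502 CPM in cadmium testes. NONMMUT013596.2 (715 to 1058 CPM over the 10 samples) and NONMMUT051230.2 (225.2 to 336.7 CPM) were nearly as even. At the other end stood NONMMUT014243.2, with 113.5 times between its samples, NONMMUT040659.2 with 72.9 times and NONMMUT015670.2 with 53.7 times. NONMMUT015670.2 was at 2821 to 6323 CPM in sperm and 117.7 to 344.7 CPM in testes.

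The members fell into groups by tissue. In 99 members every sperm sample was above every testes sample, in 60 every testes sample was above every sperm sample, and in 81 the tissues overlapped. Of the 36203 transcripts of at least 1 FPKM in 2 or more samples, 3.52% had every sperm sample higher and 22.2% every testes sample higher. Since the floor let members with a low testes level through, the first count is partly set by the rule. With a floor of 272.9 CPM in every sample 131 members were left, of which 25 had every sperm sample higher, 44 every testes sample higher and 62 overlapped. Both counts depended on the scaling, and with TMM factors taken from known mRNAs they were 61 and 94.

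**Figure D2:**
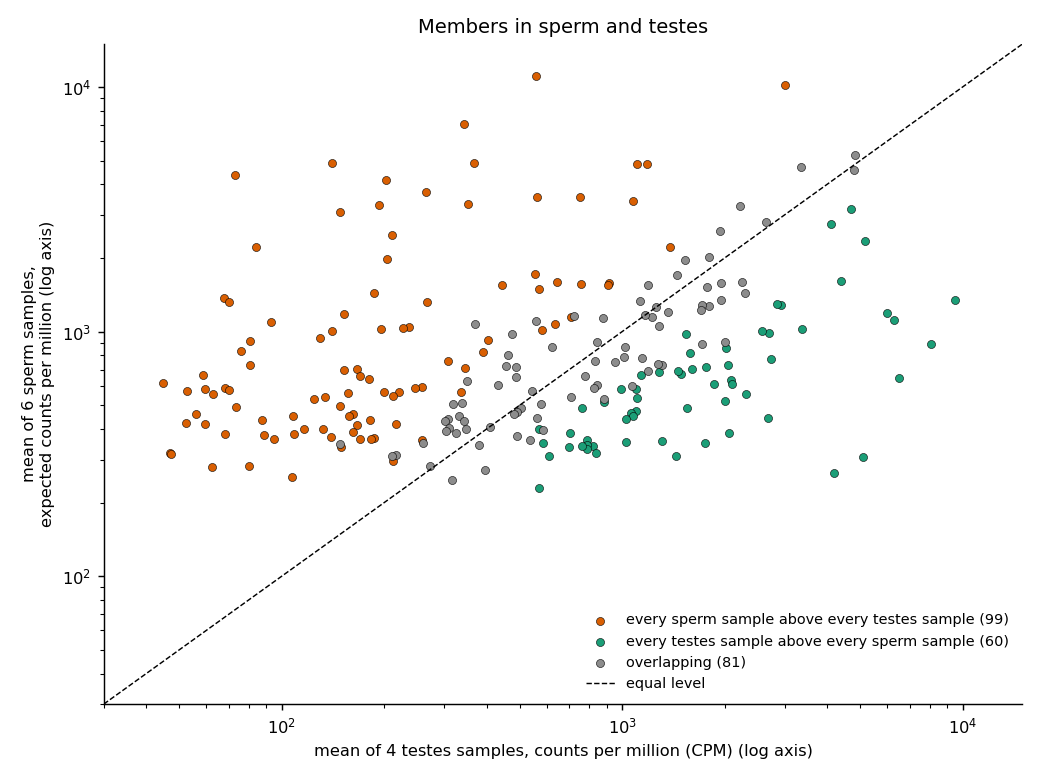
Mean level of each of the 240 members in the 4 testes samples (horizontal) and the 6 sperm samples (vertical), in CPM on log axes, coloured by whether the samples of the tissues overlap; the dashed line marks equal levels. The 99 members with every sperm sample higher reach down to a testes mean of 44.7, while the lowest sperm mean of a member is 229.9.

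The 99 members higher in sperm had a median level of 699 CPM in sperm and 169.8 CPM in testes, and their sperm level was 1.39 to 60.2 times their testes level with a median of 4.24. They took 12.6 to 18.6% of sperm counts and 2.62 to 3.14% of testes counts. The 60 members higher in testes had medians of 568 CPM in sperm and 1567 CPM in testes, with a testes level 1.43 to 16.5 times the sperm level and a median of 2.39. They took 3.58 to 4.81% of sperm counts and 12.3 to 14.8% of testes counts. The 81 overlapping members took 6.9 to 9.01% and 7.81 to 8.86%. The sets were sorted by tissue level, so these shares describe them and test nothing. In length the sets were alike, with medians of 2260 bp, 2215 bp and 2351 bp. In 24 members the lowest sperm sample was over 5 times the highest testes sample, and in 4 the lowest testes sample was over 5 times the highest sperm sample. The floor was lower in testes, so these 2 counts are partly set by the rule. They were not taken over all transcripts or with an equal floor, and are a description.

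The tissue difference was tested in the controls, sperm samples 2, 3 and 4 against both testes samples. All 240 members passed the filter on low values. By the quasi-likelihood test of edgeR, p-values being adjusted after Benjamini and Hochberg over all transcripts tested, 102 members were called (adjusted p under 0.05 and more than 2-fold): 51 rose and 51 fell in sperm. Since the floor was lower in testes, the split is partly set by the rule and is given as a description: of the 131 members that pass a floor of 272.9 CPM in every sample, 10 were called higher and 38 lower in sperm. The 102 were 42.5% of the members, against 23.8% of all transcripts tested, and 4.48% of the latter were called higher and 19.3% lower. The median log2 fold change was 0.03 over the members and -1.30 over all transcripts tested. The count fell to 27 without control sperm sample 2 and to 38 without control sperm sample 4. With the total count as the library size the split was 69 higher and 40 lower, and with TMM on known mRNAs it was 43 and 78. These scalings moved the median of all transcripts by 0.17 and by -0.39.

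In the cadmium arm, 2 sperm against 2 testes samples, 86 members (35.8%) were called by the same edgeR test, 75 higher and 11 lower in sperm, against 29.0% of all transcripts tested, 15.1% higher and 13.9% lower. Here too the count floor of the members was not asked of the other transcripts, so the shares are a description. Of the 131 members of the equal floor, 13 were called higher and 6 lower. With the sample number as a block, 132 members were called, 100 higher and 32 lower. The share of all transcripts called under that block is not given here, so the 132 are a description. The median log2 fold change was 0.73 over the members and -0.29 over all transcripts tested. The split was 73 and 23 with total counts and 75 and 25 with TMM on known mRNAs, which moved the median of all transcripts by -0.26 and -0.30. Without cadmium testes sample 1 no member was called, the smallest adjusted p being 0.168. In that fit 134 members were still more than 2-fold apart and 72 had an unadjusted p under 0.05.

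The control and cadmium contrasts share no sample, and they placed the members in nearly the same order. Testes samples of the same number were closely alike across the arms (Pearson r of 0.996 and 0.988 over the members), so the contrasts may not be independent. The members were also chosen by their counts in all 10 samples, and no r over all transcripts is given here. Across the 240 members, which are not independent replicates, the log2 fold changes had a Pearson r of 0.974, and 204 members had the same sign in both. The calls shared were 61, which is 59.8% of those in controls and 70.9% of those after cadmium. All 61 had the same direction in both, 50 higher and 11 lower in sperm. Calls shared by both contrasts were not counted over all transcripts, so the 61 are a description of the members. Among the 131 members of the equal floor 9 were called higher and 6 lower in both.

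**Figure D3:**
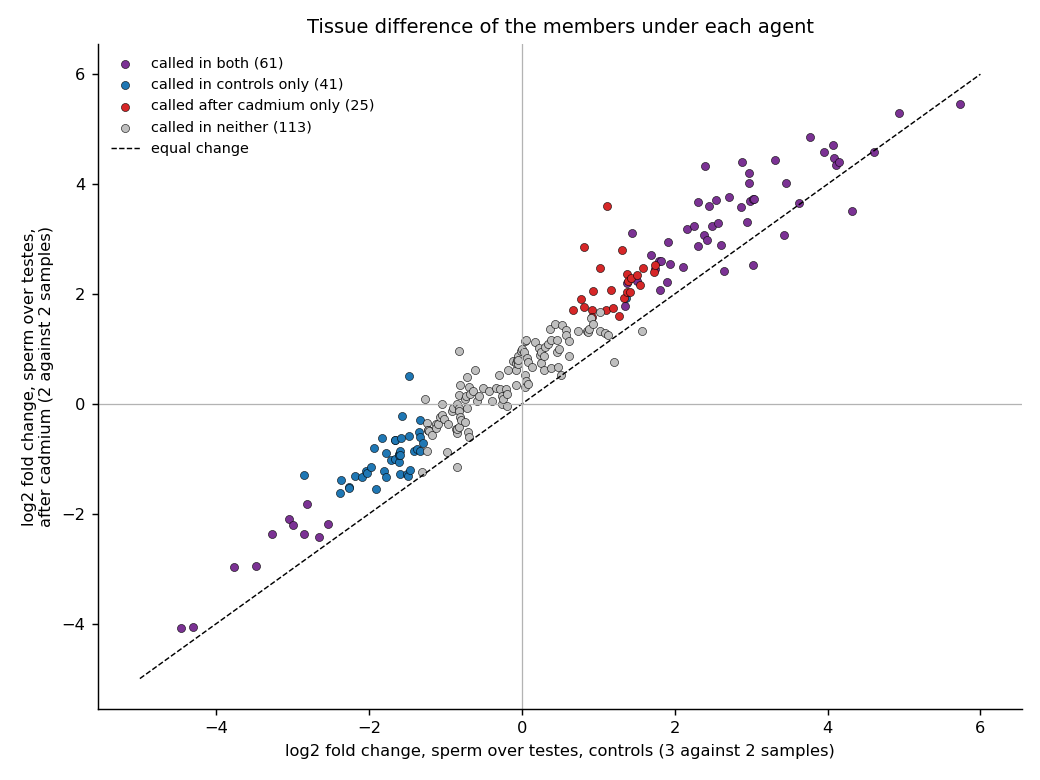
Log2 fold change of sperm over testes for the 240 members in the controls (horizontal) and after cadmium (vertical), coloured by where a member was called by edgeR; the dashed line marks equal change. The points follow a band that runs beside the line and mostly above it, with NONMMUT014243.2 at 5.73 and 5.46 at the top and NONMMUT006556.2 at -4.46 and -4.08 at the bottom. The offset of the band changed with the scaling. The member medians were 0.03 and 0.73 as drawn and 0.31 and 0.48 with total counts. They were -0.35 and 0.48 with TMM on known mRNAs, and 0.06 and 0.70 with DESeq2 size factors.

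The largest rises in control sperm were those of NONMMUT014243.2, NONMMUT040659.2, NONMMUT015672.2 and NONMMUT121493.1. None of the 6 members named for a rise in either arm passes the equal floor of 272.9 CPM: they are members because the floor was low in testes, which left room for a large difference, and their values support nothing beyond their own level. NONMMUT014243.2 (NONMMUG009018.2, 3307 bp) was at 7047, 3871, 6023 and 3283 CPM in control sperm, 1988 and 4035 CPM in cadmium sperm, 62.1 and 67.3 CPM in control testes, and 67.4 and 93.9 CPM in cadmium testes. No sperm sample came near a testes sample. Its log2 fold change was 5.73 (SE 0.56, edgeR adjusted p = 3.46e-12) in the controls and 5.46 (SE 0.85, edgeR adjusted p = 9.82e-06) after cadmium. NONMMUT040659.2 (NONMMUG025207.2, 2369 bp) was at 4065, 5212, 3998 and 5157 CPM in control sperm, 7096 and 3928 CPM in cadmium sperm, and 97.3, 152.7, 132.8 and 179.4 CPM in the testes samples. It rose by 4.93 (SE 0.54, edgeR adjusted p = 1.37e-10) in the controls and by 5.29 (SE 0.89, edgeR adjusted p = 2.86e-05) after cadmium, on the log2 scale.

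NONMMUT015672.2 (NONMMUG009950.2, 3942 bp) was at 2416, 1843, 3193 and 2058 CPM in control sperm and 73.3 and 77.5 CPM in control testes, a log2 fold change of 4.60. NONMMUT121493.1 (NONMMUG034000.2, 4787 bp) was at 3585, 2928, 4265 and 3628 CPM in control sperm and 89.3 and 182.6 CPM in control testes, with a log2 fold change of 4.32 in the controls and 3.51 after cadmium. Its testes level was uneven, and 389 CPM in cadmium testes sample 2 was 2.13 times the next testes sample. Among the largest rises after cadmium were also NONMMUT010592.2 (NONMMUG006660.2, log2 fold change 4.86) and NONMMUT091009.1 (NONMMUG010524.2, 4.72), which had risen in the controls by 3.77 and 4.07. NONMMUT091009.1 was at 2294 to 4117 CPM over the sperm samples and 118.4 to 164.1 CPM in testes.

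The same 4 members showed the largest falls in both arms, and 2 of them pass the equal floor. NONMMUT006556.2 (NONMMUG004231.2, 2142 bp) was at 419, 229.7, 313.8 and 368 CPM in control sperm, 276 and 245 CPM in cadmium sperm, 4236 and 6087 CPM in control testes, and 4502 and 5523 CPM in cadmium testes. It was lower by -4.46 (SE 0.45, edgeR adjusted p = 1.26e-11) in control sperm and by -4.08 (SE 0.81, edgeR adjusted p = 0.000259) after cadmium. NONMMUT016582.2 (NONMMUG010430.2, 4050 bp) was at 334.4, 189.0, 324.7 and 330.5 CPM in control sperm, 197 and 210.4 CPM in cadmium sperm and 3658 to 4375 CPM in testes, with log2 fold changes of -4.30 and -4.06. NONMMUT054629.2 (NONMMUG033877.2, 1080 bp) was at 517 to 874 CPM in sperm and 5363 to 7712 CPM in testes, with -3.77 and -2.97. NONMMUT010461.2 (NONMMUG006571.2, 5286 bp), one of the 10 highest members, had -3.47 and -2.96.

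Each of the 8 members named for a rise or a fall in controls stayed called in every alternative fit of that comparison. The 8 named after cadmium stayed called in every alternative fit but the one without cadmium testes sample 1.

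Cadmium was set against control in the testes, 2 against 2 samples. No member was called by edgeR, none had an unadjusted p under 0.05, and DESeq2 called none. Of all transcripts tested, 0.0% were called and 1.21% had an unadjusted p under 0.05. The log2 fold changes of the members ran from -0.30 to 1.14 with a median of 0.06 (0.02 over all transcripts) and a median SE of 0.52, and 234 of 240 were within 1.5-fold. The p-values do not show that the level was the same, since an SE of this size leaves room for changes near 2-fold. The highest value was that of NONMMUT119603.1, at 74.98 and 192.1 CPM in control testes and 92.5 and 458.5 CPM in cadmium testes, where the groups overlapped. NONMMUT121493.1 followed with 0.98, and in both members cadmium testes sample 2 was far above the other 3.

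The testes samples of the same number were more alike than those of the same arm. Over the 240 members, the log2 CPM of control testes sample 1 and cadmium testes sample 1 had a Pearson r of 0.996, and that of control and cadmium testes sample 2 had 0.988, against 0.961 within the control and 0.962 within the cadmium pair. 27 members were over 1.5 times apart between samples 1 and 2 in both arms, and all 27 had the same direction, 15 higher in sample 1 and 12 higher in sample 2. This was not particular to the members: of the 1685 transcripts with 10 or more counts in every sample, 363 (21.5%, against 11.2% of the members) were that far apart in both arms in the same direction and 5 in opposite ones. Of the members at any size, 57 were higher and 139 lower in sample 1 in both arms. NONMMUT007288.2 was at 2051 and 725 CPM in control testes samples 1 and 2 and at 1756 and 718 CPM in cadmium testes samples 1 and 2. NONMMUT121847.1 was at 1310.0 and 469 CPM, and at 1114 and 424.5 CPM. In the other direction NONMMUT004044.2 was at 958 and 1868 CPM, and at 937 and 1980.1 CPM. The labels do not say what the number of a testes sample marks. Of the 12 higher in sample 2, 8 were among the 99 members with every sperm sample above every testes sample, and of the 15 higher in sample 1, 2 were. These members were picked out after their values had been seen.

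**Figure D4:**
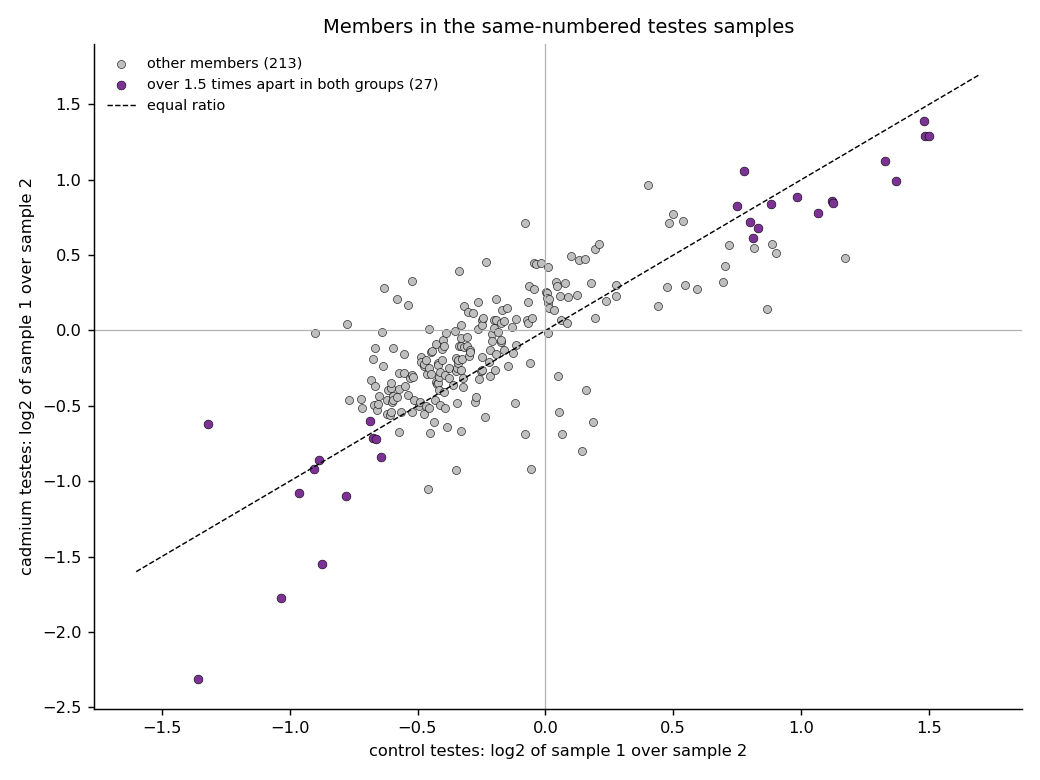
Log2 ratio of testes sample 1 over testes sample 2 for each of the 240 members in the controls (horizontal) and after cadmium (vertical); the dashed line marks equal ratios. The 27 members in purple were over 1.5 times apart in both arms and lie in the lower left and upper right corners, with none in the other corners.

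In sperm, cadmium samples 1 and 2 were set against control samples 2, 3 and 4. 1 member was called by edgeR (0.417% of the members, against 0.224% of all transcripts tested), and DESeq2 called none. 10 members (4.17%) had an unadjusted p under 0.05, against 7.48% of all transcripts. The log2 fold changes ran from -0.78 to 1.82 with a median of 0.18 (0.37 over all transcripts), and 218 of the 240 members were within 1.5-fold. All 10 members with an unadjusted p under 0.05 were higher after cadmium. The direction of such transcripts among all tested is not given here, and the median over all transcripts was a rise as well.

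The called member was NONMMUT091482.1 (NONMMUG056991.1, 1484 bp), which is outside the rule for named members since its groups overlap. It was at 912, 2594, 2800.0 and 996 CPM in control sperm samples 1 to 4, at 2088 and 11864 CPM in cadmium sperm, and at 704 to 841 CPM in testes. Cadmium sperm sample 1 lay within the control range and sample 2 was 4.24 times the next sperm sample. The log2 fold change was 1.82 (SE 0.42, edgeR adjusted p = 0.00978), and without cadmium sperm sample 2 it was -0.07 (edgeR adjusted p = 1.0).

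The same sample stood out in 3 more members that were not called. Cadmium sperm sample 2 held over 2 times the next sperm sample in NONMMUT013561.2 (9751 CPM, the other sperm samples at 1361 to 3221), NONMMUT091481.1 (8920.3 CPM, the others at 1205 to 3190.3) and NONMMUT055892.2 (11462 CPM, the others at 2631 to 4538). In these 4 members control sperm samples 2 and 3 were also the highest of the control samples. With no filter on low values edgeR called all 4 of them. Cadmium sperm sample 2 was over 1.5 times the next in 10 members, and cadmium sperm sample 1 in 17 others. NONMMUT010592.2 led the latter, with 2925 CPM against 1356 CPM in cadmium sperm sample 2 and 616 to 1117 CPM in control sperm. NONMMUT028475.2 had 2295 CPM there, against 1191 CPM in cadmium sperm sample 2 and 660.4 to 866 CPM in control sperm. The 2 cadmium sperm samples had a Pearson r of 0.814 over the members, the lowest within any group, whose other values ran from 0.864 to 0.962.

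**Figure D5:**
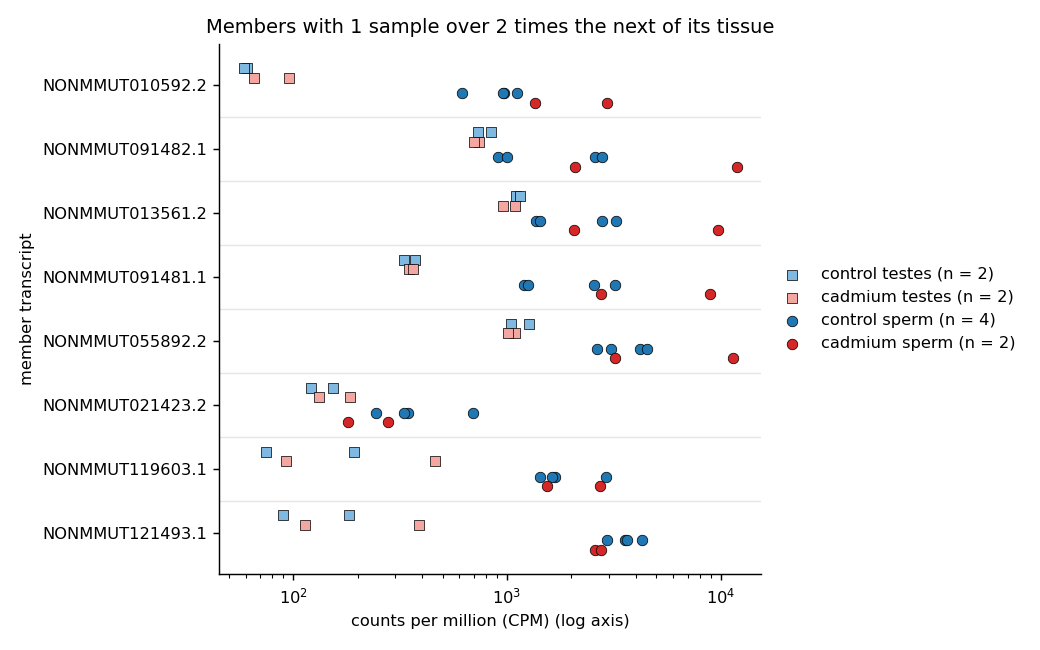
Level in CPM (horizontal, log axis) of the 8 members in which 1 sample was over 2 times the next of its tissue, 1 point per sample, with circles for sperm and squares for testes, blue for control and red for cadmium. In NONMMUT091482.1, NONMMUT013561.2, NONMMUT091481.1 and NONMMUT055892.2 the point far to the right is cadmium sperm sample 2, at 8920.3 to 11864.

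Over all 240 members, both cadmium sperm samples were above control sperm samples 2, 3 and 4 in 32 and below them in 9, against 21.8% and 1.87% of all transcripts tested. The 32 are a smaller share of the members than the share of all transcripts, and the 9 a larger one. Control sperm samples 2, 3 and 4 listed 30069, 7718 and 15346 transcripts, and the cadmium sperm samples listed 34371 and 32118. Members had to pass the count floor in every sample, which was not asked of the other transcripts. The part of this in the difference between the shares was not tested, so the shares are a description. Among the 10 members with an unadjusted p under 0.05, NONMMUT071594.2 was at 923 and 1063 CPM after cadmium against 224.0, 499.4 and 332.5 CPM in control sperm samples 2, 3 and 4 (log2 fold change 1.58, SE 0.48, edgeR adjusted p = 0.349). NONMMUT000380.2, the highest member in FPKM, was at 1455 and 1401 CPM after cadmium and at 426, 385 and 1116 CPM in these controls (1.18, SE 0.46, edgeR adjusted p = 0.542). NONMMUT074988.1 was at 954 and 705 CPM against 447, 371 and 419 CPM (0.98, SE 0.48, edgeR adjusted p = 0.618). None of these 3 passed the adjustment.

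The difference of the cadmium effect between sperm and testes was tested in 1 fit of 9 samples. No member was called by edgeR or DESeq2 (0.0223% of all transcripts tested were called by edgeR). By edgeR 4 members (1.67%) had an unadjusted p under 0.05, against 3.83% of all transcripts. NONMMUT091482.1 had the smallest p, with a difference of 2.03 on the log2 scale (SE 0.78, edgeR adjusted p = 1.0), and NONMMUT013561.2, NONMMUT091481.1 and NONMMUT121847.1 were the others. In NONMMUT091482.1, NONMMUT013561.2 and NONMMUT091481.1 cadmium sperm sample 2 was over 2 times the next sperm sample, as given above. Across the members, the cadmium log2 fold changes in sperm and in testes had a Pearson r of -0.059.

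The spread between samples of 1 group was compared pair by pair, since a range grows with the number of samples. The higher over the lower sample of a member had a median of 1.19 to 1.34 in the 6 pairs of control sperm samples, 1.5 in the cadmium sperm pair, 1.32 in control testes and 1.24 in cadmium testes. The sperm libraries held fewer counts than the testes libraries. Over all 240 members the samples of different tissues had a Pearson r of 0.215 to 0.361, and samples of 1 tissue 0.767 to 0.996. Control sperm sample 1 had r of 0.88 to 0.907 to the other control sperm samples. Over the members this lay within the range of the other control pairs, 0.864 to 0.95. The study left this sample out for a low Pearson coefficient with its other sperm replicates. Members had to pass the count floor in this sample too, so r over the members cannot test that choice. Control sperm sample 1 was also the sole sample that fell under 0.5 times the next lowest of its tissue in any member, which it did in 2.

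7 genes had 2 members each, which were picked out after their values had been seen, and none had more. In NONMMUG015766.2, NONMMUT025473.2 (890 bp) was at 1019 to 1867 CPM in sperm and 8076 to 10633 CPM in testes, while NONMMUT097964.1 (1043 bp) was at 907 to 1850.3 and 1126 to 1369 CPM. The first made up 41.8 to 60.2% of the pair in sperm and 85.6 to 90.1% in testes. In NONMMUG035749.2, NONMMUT057550.2 (7928 bp) was at 2893 to 5672 CPM in sperm and 401 to 749 CPM in testes, and NONMMUT057551.2 (7252 bp) at 702 to 1448 and 358 to 751 CPM. The first made up 69.9 to 81.4% of that pair in sperm and 47.7 to 52.8% in testes. In both genes the share of the transcripts did not overlap between the tissues, which also held in NONMMUG029162.2 and NONMMUG013300.2.

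In NONMMUG029162.2 both members were higher in every sperm sample, and NONMMUT047153.2 made up 51.5 to 70.6% of the pair in sperm and 81.0 to 83.1% in testes. In NONMMUG040025.2 both were higher in every testes sample, NONMMUT064807.2 with 2179 to 3826 CPM and NONMMUT064810.2 with 1151 to 2129 CPM. For NONMMUG013300.2, NONMMUG020781.2 and NONMMUG020753.2 the levels of both members overlapped between the tissues. In NONMMUG013300.2, NONMMUT094572.1 made up 72.3 to 87.2% of the pair in sperm and 87.6 to 90.6% in testes. In 6 of the 7 genes both members had fractional counts in every sample, and in the seventh in 5 or 6 samples, so the split of the reads within these pairs rests on the authors' quantification.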

How the data were processed

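Each of the 10 deposited tables lists the transcripts above 0 in a sample. The authors deposited expected counts, estimated per transcript and not normalized, beside FPKM values, which the authors had scaled to transcript length and library size. The study's methods name SOAPaligner/SOAP2 and the submitters' processing notes name HISAT and the mm10 build; the tool that gave the expected counts is not given in the sources used here.

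A transcript that was not listed in a sample was taken as 0. CPM (counts scaled to 1000000 per library) used the total expected count. Rounded expected counts were tested with edgeR 4.0.16 (quasi-likelihood test, TMM) in R 4.3.3, keeping a transcript that reached 1 FPKM in 2 or more of the compared samples, with Benjamini-Hochberg adjustment over all of them. Called means an adjusted p under 0.05 and more than 2-fold. The SE is the log2 fold change divided by the square root of F, worked back from the test. DESeq2 1.42.0, other scalings, no filter, added or left-out samples and a block for the sample number were alternatives. The fits were checked on simulated counts. Summaries and figures used Python 3.11.15, pandas 2.3.3, numpy 2.4.6 and matplotlib 3.10.9.

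Named are the 10 highest members, the 3 most and 3 least even, up to 4 called rises and 4 falls per comparison without overlap between the groups, the shortest and longest, and those at the floor; others are said to be chosen later. The members, lists and tests were chosen with earlier results of these data known. The study's methods describe its sperm samples as pools from separate groups of mice and its testes samples as biological replicates, without naming cadmium. The labels do not say that samples came from separate animals. The p-values measure the spread between these samples, which for the cadmium samples may be technical. Samples of a group differed by more than counting noise, with a chi-square per degree of freedom of 10.3 to 18.5, and so did control and cadmium testes samples of the same number, with 3.34 and 4.42. Repeat libraries of 1 RNA could also differ by this much, so the chi-square values do not tell separate animals from repeat libraries. Each sample was counted as 1.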

Additional observations from a re-analysis of the deposited data

Results flagged for a closer look

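Of the 39 named members, 3 had 1 control sperm sample apart from the other 3, by a gap that, as a share of the range over the 4 samples, was past Dixon's 95% limit. NONMMUT016582.2 was at 189.0 CPM in control sperm sample 2 and at 324.7 to 334.4 CPM in the others. NONMMUT033768.2, one of a pair of members of NONMMUG020753.2, was at 513.3 CPM in control sperm sample 4 and at 381.0 to 394.3 CPM in the others. NONMMUT132254.1, the longest member, was at 1203.3 CPM in control sperm sample 2 and at 1380.1 to 1415.1 CPM in the others. Chance alone passes this limit in about 1 of 20 groups, and 16 of the 240 members (6.67%) passed it.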

How the results depend on the processing

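The control tissue count of 102 members ranged from 27 to 80 when 1 sample was left out. After cadmium, the 86 became 132 with the sample number as a block (replicate block) and 0 to 91 without 1 sample. In cadmium against control sperm, the 1 call became 0 under DESeq2 and under its size factors in edgeR, 4 without the filter, 0 to 4 without 1 sample, 3 with control sperm sample 1 added, and 0 with that sample and the block; NONMMUT091482.1 (log2 fold change 1.82) ran from -0.07, without cadmium sperm sample 2, to 2.61, without cadmium sperm sample 1. Cadmium against control testes and the difference between tissues gave 0 in all 10 and all 16 alternatives. The members numbered 434 with a floor of 50 counts, 113 with 200, and 131 with an equal CPM floor. Of known lncRNA counts they held 39.5% in cadmium sperm, 34.3% in control sperm, 32.2% in cadmium testes and 31.6% in control testes; without the 9 genes they held 33.8% of cadmium and 32.5% of control sperm counts, 26.6% of cadmium and 25.7% of control testes counts, and of control sperm FPKM 22.3%. With TMM on known mRNAs, a scaling chosen after the data were seen for this count, 61 members had every sperm and 94 every testes sample higher. Of all transcripts, 2.39% and 30.9% were so placed. The cause of these changes was not tested, beyond the smaller number of samples where 1 was left out; an arm left with 1 sample takes its spread from the other group. The labels do not say what a sample number marks; between the arms, deviations of testes samples 1 and 2 had r = 0.796, sperm samples 1 and 2 r = -0.058, and the block with control sperm sample 1 gave 97 calls in the control tissue comparison. Control sperm libraries of 366455 to 1058017 counts and 2 samples in 3 of the 4 groups limit what could be called.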
